A study of Mus musculus with 1600 samples.

Results

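Cells of mouse hind limbs at embryonic stage E15.5 were compared, gene by gene, with cells of hind limbs at E12.5, stages named for the days since fertilization. The cells were chosen by their stage label and by a minimum of 1000 detected genes, which 200 of 200 cells labelled E15.5 and 158 of 160 cells labelled E12.5 reached. These 358 cells are part of 480 cells in the count table that was used and of 1600 cells in the series. The embryos of both stages were C57BL/6 mice carrying the SCX-GFP transgene, a green fluorescent reporter named for scleraxis, the transcription factor of tendon progenitors. The labels name no treatment, and no group without the transgene entered the comparison. Limbs of siblings of 1 litter were combined at a stage, generally 3 to 5 limbs, dissociated with collagenase and trypsin, and loaded on the Fluidigm C1, a chip that isolates single cells. The labels name no sort for GFP, and they do not say which sequence drives it.

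Between these days the hind limb passes from a patterned bud to a segmented limb with cartilage elements, tendons, muscles and a stratifying skin. Mesenchymal cells of the bud, which express patterning factors of the Hox, Msx and Lhx families, give rise to the connective tissue lineages that build the extracellular matrix. Fibrillar collagen is the main product of those lineages. Its chains are hydroxylated and folded in the endoplasmic reticulum, exported in large transport vesicles, trimmed by proteases outside the cell and cross-linked by lysyl oxidases.

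The 4 library pools of E12.5 (numbered 4 to 7 in the labels) and the 5 pools of E15.5 (8 to 12) held 38 to 40 kept cells each. Each pool held between 7828702 and 14443221 counts, and the stage totals were close, with 46009284 counts for E12.5 against 46035725 for E15.5. The pools are a technical split of 1 sample per stage, so no test between the stages was possible and no p-value is given. Levels are in CPM, the summed counts of a gene scaled to a common total for each pool or stage, and intervals in parentheses are exact 95% Poisson intervals that cover counting error only. A gene was called higher or lower at E15.5 (below also "rose" or "fell") when the log2 ratio of the stage CPM, with 5 CPM added to each, reached 1 in size and every pool of E15.5 lay on the same side of every pool of E12.5. Folds leave that addition out. By the rule for a call the pools of a called gene cannot overlap, so where this is said of a called gene below it adds no support. Pool values are listed in the order of the pool numbers. The hind limb factor Pitx1 was read in every pool, at 147 to 205 CPM at E12.5 and 58.9 to 80.2 CPM at E15.5. Counts of Xist without a Y-linked gene, of Y-linked genes without Xist and of both were found in 119, 2 and 27 cells of E12.5 and in 124, 13 and 52 cells of E15.5. The sex of the embryos is not in the labels, and the source of the counts of both in 1 cell was not tested. The mix of cells also differed. Cells in which at least 3 markers of a non-mesenchymal type (epidermis, muscle, blood, vessel, immune, glial or neuronal) each reached 100 CPM were 19 of 158 at E12.5 (12.0%, exact interval 7.40% to 18.1%) and 62 of 200 at E15.5 (31%, 24.7% to 37.9%). Values without these cells are given beside a named gene whose call they ended, and for the lists at the end.

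Of 12816 genes with a count in at least 10 cells, 391 (3.05%) were higher at E15.5 and 214 (1.67%) were lower. These shares are the background for each list below, and a single call in a list does not describe the list. The size of the ratio alone was reached by 7.33% and 4.35% of genes. The ratios were larger on the higher side, where 133 genes passed 2 on the log2 scale and 34 passed 3, against 12 and 0 genes on the lower side. For most genes the stages were close, with 88.3% of genes within 1 log2 unit, a median of -0.04 and a range from the 5th to the 95th percentile of -0.95 to 1.19. The largest gains in CPM among called genes were led by Col1a2, H19, Col1a1, Meg3, Sparc, Lgals1 and Col3a1. The largest losses were led by Sox11, Hmga2, Zfhx3, Cd24a, Nasp and Zfhx4, among them 3 transcription factors (Sox11, Zfhx3 and Zfhx4). Without the cells that carried markers of other types, 251 of the 391 higher genes and 132 of the 214 lower genes kept their call, and 328 and 172 kept the fold. In a sum over cells, fewer cells of a type and less RNA per cell cannot be told apart, and this holds for each level given below.

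**Figure D1:**
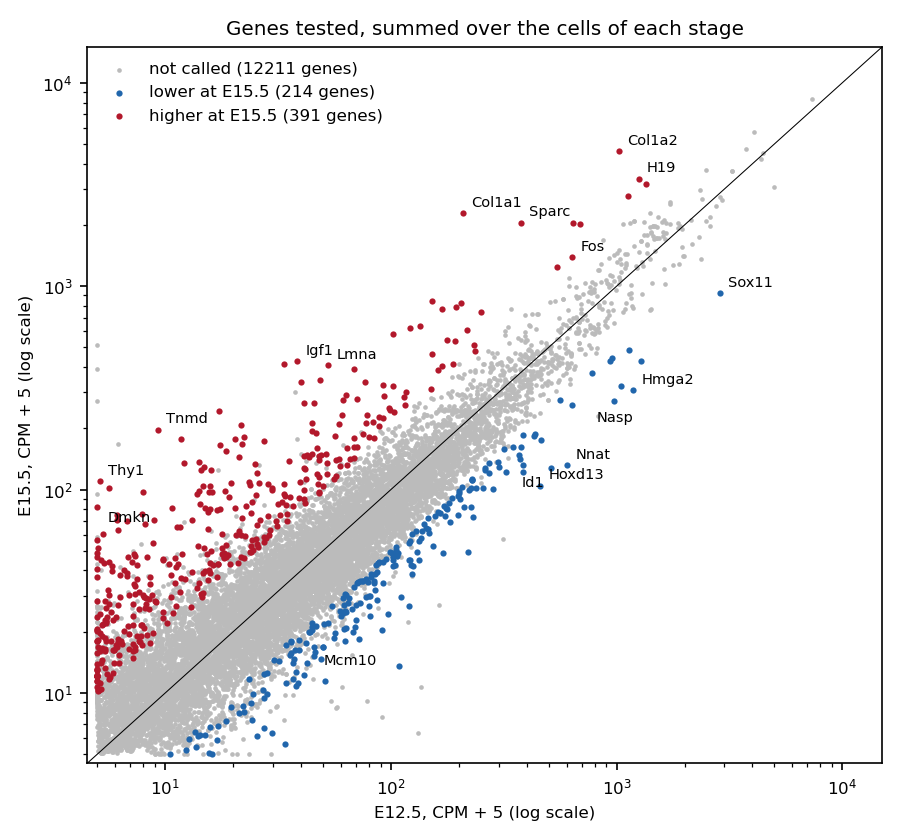
Each point is 1 of the 12816 genes, with its CPM at E12.5 (x axis) and at E15.5 (y axis), 5 CPM added to each, on log scales. The 391 genes called higher reach farther from the diagonal than the 214 called lower.

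Most chains of a list of collagens rose, and so did some of the genes for their modification, export, trimming and cross-linking. The list held chains of fibrils (types I, III and V), of collagens that decorate them (FACIT, types XII, XIV and XVI) and of types VI, VIII and XXVI. Of these 14 chains 12 were higher at E15.5 and 0 lower, with a median log2 ratio of 2.03 beside -0.04 over all genes. Chains of types II, IX and XI were counted in the cartilage list, where 2 of 19 genes rose and 0 fell (median 0.79). Without pool 6, 5 of that list rose. Col1a2, the second chain of type I collagen (chr6:4504814-4541544, plus strand), was read at 1046, 933, 1118 and 1008 CPM in the 4 pools of E12.5 and 5919, 3039.6, 5467, 3849.8 and 4302 CPM in the 5 pools of E15.5. The pools did not overlap and even the lowest pool of E15.5, pool 9, was well above the highest of E12.5. The stage sums stood at 1020.1 CPM (1011 to 1029) and 4597 CPM (4578 to 4617), 4.51-fold apart. Type III collagen, encoded by Col3a1, was 3.18-fold higher at 2029.9 CPM (2017 to 2043). Col6a1, a chain of the beaded filaments of type VI collagen, stood at 52.4, 25.7, 42.1 and 50.1 CPM in the 4 pools of E12.5 and 300.4, 264, 443, 348 and 357 CPM in the 5 pools of E15.5. All E15.5 pools were thus several times above all E12.5 pools, and Col6a1 was 7.85-fold higher. Its partner chain Col6a2 was 5.97-fold higher. Col12a1 and Col14a1, FACIT collagens on the surface of fibrils, were 4.76-fold and 6.02-fold higher.

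Creb3l1, a membrane-bound transcription factor that is released from the endoplasmic reticulum and acts on collagen and secretory genes (chr2:91982328-92024502, minus strand), showed one of the larger rises of this group. It was read at 1.28, 14.9, 4.03 and 16.2 CPM in the E12.5 pools and at 133, 66.0, 135, 99.5 and 170.1 CPM in the E15.5 pools. The groups were far apart, and the stage level went from 9.78 CPM (8.90 to 10.7) to 125 CPM (121 to 128), 12.7-fold. In the secretory pathway 3 of 24 genes rose and 0 fell, with a median of 0.32, and 8 of the 24 had every E15.5 pool above every E12.5 pool. Over all genes tested, pools were apart in that direction for 4.83%. Sec24d, a coat protein of the vesicles that carry procollagen, was at 22.5, 0, 8.97 and 11.0 CPM and then 60.3, 52.1, 46.5, 38.4 and 27.3 CPM, 4.12-fold higher in the sums (6.50-fold without pool 4, the highest of E12.5). Kdelr3, a receptor that returns chaperones to the endoplasmic reticulum, was 3.01-fold higher, and Ssr4, a subunit of the translocon-associated complex, 2.63-fold. Among chaperones of the endoplasmic reticulum, the list members Hspa5, Canx and Serpinh1 were not called, and genes outside the lists were not surveyed. Hspa5, which encodes BiP, had a log2 ratio of 0.12, the lectin chaperone Canx 0.00 and the collagen chaperone Serpinh1 -0.09, with overlapping pools in each case.

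Among 23 enzymes and helpers of collagen processing 7 rose, 0 fell and the median was 0.91. Crtap, part of the prolyl 3-hydroxylase complex of collagen, stood at 42.1, 25.6, 27.4 and 44.9 CPM in the E12.5 pools and at 142, 134, 129, 168 and 137 CPM in those of E15.5. Its E15.5 pools lay close together, and its stage level was 3.91-fold higher. P4ha3, a catalytic subunit of prolyl 4-hydroxylase, was 3.67-fold higher, whereas P4ha1 and P4hb of the same enzyme were not called, at log2 ratios of -0.38 and 0.65. Outside the cell, Pcolce, which enhances removal of the procollagen C-propeptide, was 2.31-fold higher. Lox, the lysyl oxidase that cross-links collagen and elastin, was read at 9.31, 4.48, 6.44 and 4.29 CPM in the E12.5 pools and 23.9, 25.6, 37.4, 40.1 and 73.9 CPM in the E15.5 pools. All 5 E15.5 pools were above the highest E12.5 pool, and the fold was 6.84. The other rises of the list were Adamts2, the procollagen N-proteinase, at 12.4-fold (62.2-fold without pool 5), and Leprel2 at 2.17-fold, whose call was lost without pool 4, 7 or 9. Plod2, Serpinh1, Bmp1 and Loxl3 were among the members with ratios under 0.5 in size (0.01, -0.09, 0.24 and -0.36).

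**Figure D2:**
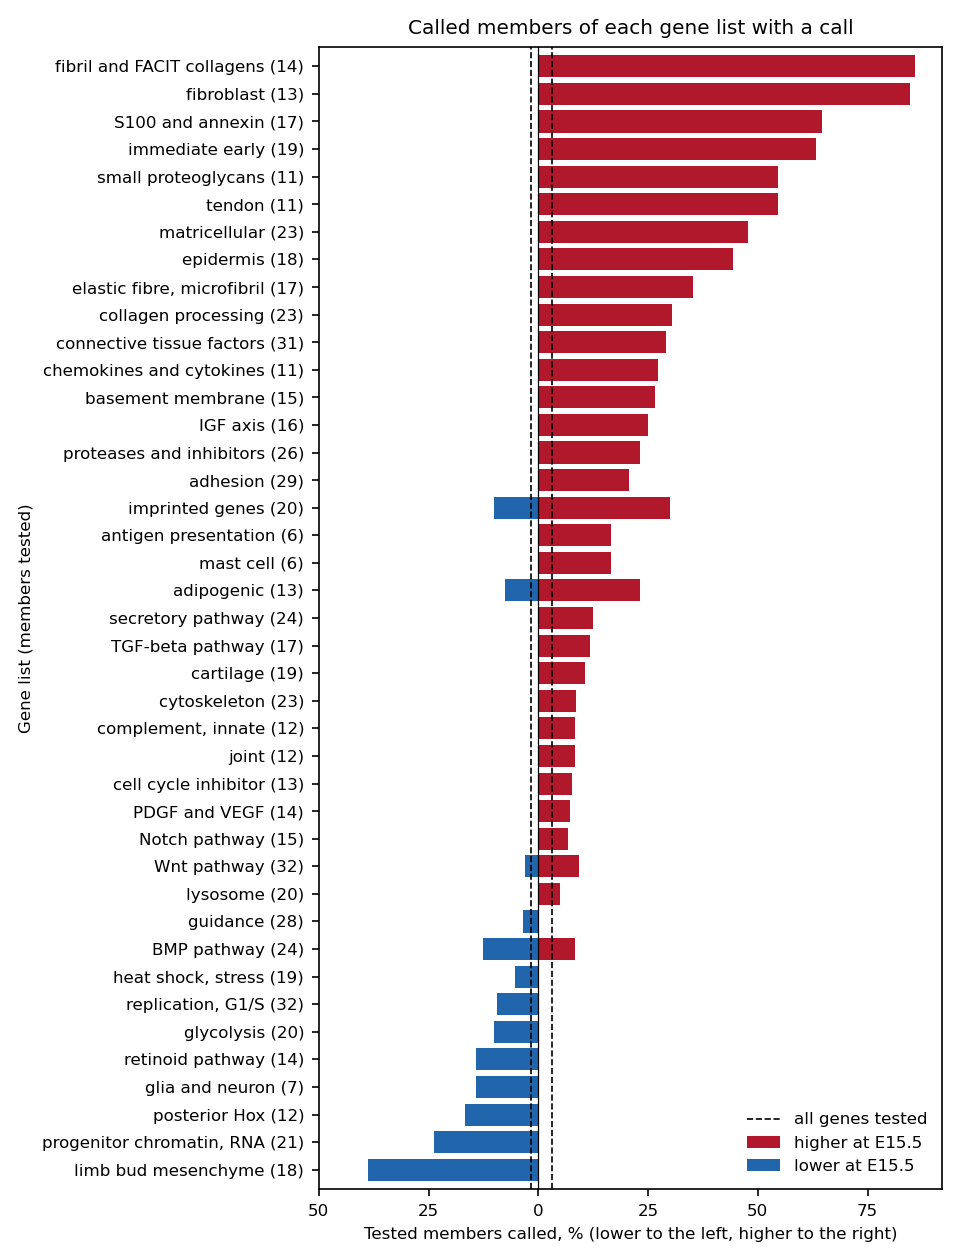
Bars show the percentage of the tested members of each gene list that were called higher (right) or lower (left) at E15.5, with the number tested in parentheses and dashed lines at 3.05% and 1.67% for all genes. Collagen, fibroblast, S100 and annexin, and immediate-early lists stand at the top, and limb bud and progenitor lists at the bottom. The bar for fibril and FACIT collagens also holds chains of types VI, VIII and XXVI.

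In other matrix groups part of the members rose. Col1a1, Col1a2, Col3a1, Dcn, Lum, Ogn and Postn belong both to matrix lists and to the fibroblast markers. Of 13 fibroblast markers 11 rose (12 without cells of other types) and 0 fell, with a median of 2.24. Of 11 tendon markers 6 rose and 0 fell (1 without pool 11), with a median of 2.12. In 1 other member the ratio reached the size for a fall, but the pools overlapped. Col12a1, Col14a1, Fmod, Kera, Tnc and Thbs4 of the tendon list are also in matrix lists, and Egr1 and Egr2 in the immediate-early list. The counts of these lists are therefore not separate. Of 11 small leucine-rich proteoglycans, which bind collagen fibrils and set their width, 6 rose and 0 fell (median 1.61). Bgn, biglycan of this family (chrX:73483602-73495933, plus strand), was read at 19.0, 34.1, 57.2 and 39.2 CPM in the 4 pools of E12.5 and 224, 244, 345, 265 and 253 CPM in the 5 pools of E15.5. The fold was 7.23. Dcn, decorin, went from 146 CPM (143 to 150.0) to 844 CPM (835 to 852), 5.76-fold. Of 23 matricellular genes, whose products modulate contacts of cells with matrix, 11 rose and 0 fell (median 1.74). Sparc, a collagen-binding glycoprotein, stood at 255, 297, 628.2 and 369.5 CPM in the 4 pools of E12.5 and 2030.3, 1690.0, 2766, 1423 and 2272 CPM in the 5 pools of E15.5. Pool 6 was the highest of E12.5 and remained under the lowest E15.5 pool, pool 11. Sparc was 5.52-fold higher in the sums, and thrombospondin 2, Thbs2, 12.6-fold. Thbs2 was lowest among E15.5 pools in pool 9, at 44.2 CPM, against at most 17.6 CPM at E12.5.

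In the elastic fibre group 6 of 17 genes rose and 0 fell (1 without pool 6 or 12), with a median of 0.70. Fbn1, the main microfibril protein, was 2.58-fold higher, Fbln5, which links microfibrils to elastin, 4.41-fold and Ltbp3, which stores latent TGF-beta, 2.24-fold. When each cell weighed the same, Ltbp3 lost its call with a log2 ratio of 0.89. Fbn2, the fibrillin of early development, was at 444 and 721 CPM, a log2 ratio of 0.69 with pools apart and no call. Without cells of other types it was called, at 1.02. Of 15 basement membrane genes 4 rose and 0 fell (median 0.86), namely Nid1 at 3.47-fold, Hspg2 (perlecan) at 2.99-fold, Lama4 at 2.17-fold and Lamb2 at 2.20-fold. The count was 2 without pool 4 or without pool 12. Lama4 was not called without pool 4, 5 or 12, and Lamb2 not without pool 4, 5, 6, 8, 10 or 12. Of 26 proteases and inhibitors 6 rose and 0 fell (median 0.65). Ctsk, cathepsin K, a collagen-degrading protease, was at 6.66, 12.7, 16.2 and 9.55 CPM in the E12.5 pools and at 99.0, 81.6, 124, 71.7 and 112 CPM in the E15.5 pools. These ranges lay far apart, with a fold of 9.10. Htra1, a secreted serine protease, was 6.41-fold higher and had a log2 ratio of 3.40 without cells of other types, against 2.54 with them. Timp2, an inhibitor of matrix metalloproteinases, and Mmp14, which forms a complex with it at the membrane, were 2.56-fold and 2.22-fold higher.

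Several imprinted genes of growth control, which are expressed from 1 parental copy and are abundant in embryonic mesoderm, rose together with insulin-like growth factor 1. Of 20 imprinted genes 6 rose and 2 fell, with a median log2 ratio of 0.66. The 2 lower genes were Nnat and Asb4, and Asb4 lost its call without pool 4, 9 or 10. H19, a long non-coding RNA next to Igf2 (chr7:142575529-142578143, minus strand), was read at 1055, 1004, 1981 and 1143 CPM in the 4 pools of E12.5 and 4979, 3525, 3005, 2491 and 2493 CPM in the 5 pools of E15.5. Pool 6 was highest at E12.5 and pool 8 at E15.5, and the groups did not overlap. The sums gave 1245 CPM (1235 to 1255) and 3369.7 CPM (3353 to 3386), a fold of 2.71. Igf2 itself was higher in each E15.5 pool than in any E12.5 pool, at 1404 and 2296 CPM, and its log2 ratio of 0.71 stayed under the threshold. At the other cluster, on chromosome 12, Meg3 and Dlk1 rose 2.37-fold and 5.32-fold. Dlk1, a membrane protein that holds back adipocyte differentiation (chr12:109452823-109463336, plus strand), stood at 116, 130.2, 77.9 and 129 CPM in the 4 pools of E12.5 and 558, 549.9, 788, 474 and 711 CPM in the 5 pools of E15.5. Plagl1, a zinc finger factor that regulates a network of imprinted genes, was read at 77.0, 170.2, 196 and 102 CPM in the 4 pools of E12.5 and 550.1, 590.01, 758, 475 and 765 CPM in the 5 pools of E15.5. Both genes had pools well apart, and Plagl1 was 4.85-fold higher. Rian, a further RNA of the Meg3 cluster, was 3.52-fold higher, a call that was lost without cells of other types (log2 1.80) or when the top cell of every pool was left out (1.54).

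On the insulin-like growth factor axis 4 of 16 genes rose and 0 fell (1 without pool 6), and of the 4 the ligand Igf1 showed the largest fold after Pappa2. Igf1, insulin-like growth factor 1 (chr10:87858265-87937042, plus strand), was read at 24.3, 20.7, 51.1 and 39.9 CPM in the 4 pools of E12.5 and 363, 396, 599.8, 401 and 390.0 CPM in the 5 pools of E15.5. The lowest E15.5 pool was above the highest E12.5 pool by several times, and the stage levels were 33.4 CPM (31.7 to 35.1) and 422 CPM (416 to 428), 12.6-fold apart. Its receptor Igf1r went the other way in level, at 288, 339.7, 286 and 317 CPM and then 153, 171, 187, 164 and 218 CPM. Those pools did not overlap either, and the log2 ratio of -0.77 did not reach the threshold. Of the binding proteins, Igfbp5 was 2.82-fold higher and Igfbp7 7.71-fold, Igfbp4 had a ratio of 0.73 and Igfbp2 of 0.20. Igfbp7 lost its call without cells of other types (log2 1.89) and without the highest cells (1.78). Pappa2, a protease that cleaves binding proteins, was at 0, 2.15, 0.230 and 2.28 CPM in the E12.5 pools and 25.1, 2.35, 58.8, 7.91 and 63.2 CPM in the E15.5 pools. Pool 9 thus barely exceeded the highest E12.5 pool, pool 7. With the top cell of a gene taken out of every pool, 2 of the 16 genes were called higher.

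**Figure D3:**
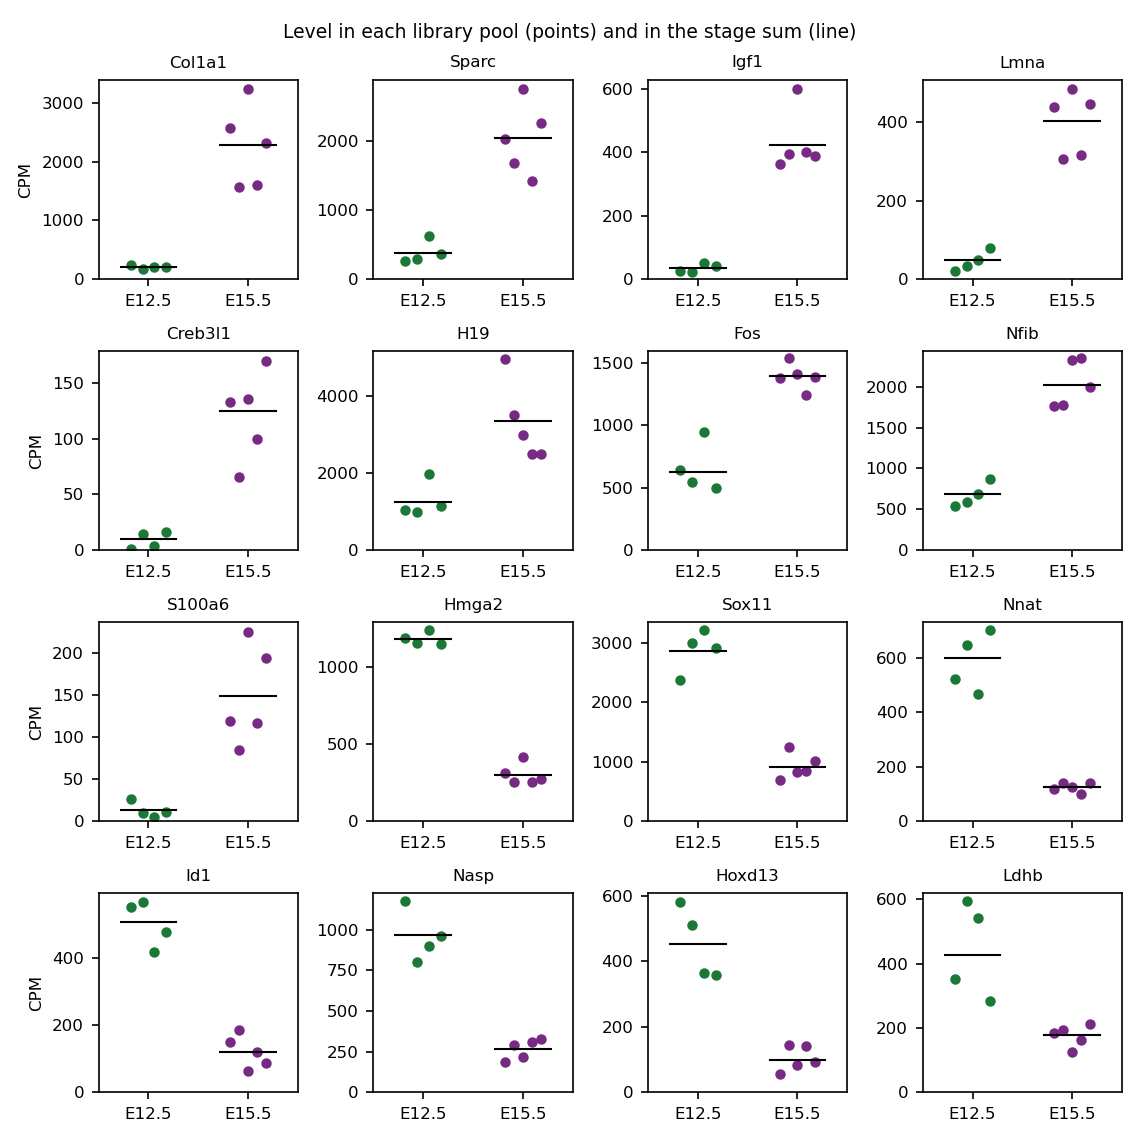
Points are the CPM of each library pool (4 at E12.5, 5 at E15.5) for 16 genes, and horizontal lines are the CPM of the stage sum. All 16 are called genes, so the pools of the stages do not overlap by the rule for a call.

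Immediate-early genes, which are transcribed within minutes of growth factor, calcium or stress signals, were another group in which most members rose. Many of their promoters are known to bind CREB, which recognises the cyclic AMP response element TGACGTCA or its core TGACGT. The bases before the start of 3 of these genes and of Meg3 are shown because they hold that element (capitals), as the table of RefSeq promoters (GRCm38.p6) gives them. The stretches are Fos (chr12:85473710-85473889, plus strand), Dusp1 (chr17:26508473-26508652, minus strand), Btg2 (chr1:134079156-134079335, minus strand) and Meg3 (chr12:109540816-109540995, plus strand), each written 5′ to 3′ along its gene.
Fos: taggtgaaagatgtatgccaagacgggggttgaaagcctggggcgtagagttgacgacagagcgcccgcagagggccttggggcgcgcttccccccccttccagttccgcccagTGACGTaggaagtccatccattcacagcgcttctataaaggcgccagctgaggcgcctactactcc
Dusp1: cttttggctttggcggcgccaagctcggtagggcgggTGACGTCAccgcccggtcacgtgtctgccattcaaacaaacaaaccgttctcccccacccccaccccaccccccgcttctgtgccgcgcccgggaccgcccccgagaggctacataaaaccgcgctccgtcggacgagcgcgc
Btg2: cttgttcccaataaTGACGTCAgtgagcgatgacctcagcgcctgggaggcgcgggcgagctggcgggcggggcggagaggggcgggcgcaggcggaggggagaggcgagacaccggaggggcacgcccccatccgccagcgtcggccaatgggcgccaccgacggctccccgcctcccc
Meg3: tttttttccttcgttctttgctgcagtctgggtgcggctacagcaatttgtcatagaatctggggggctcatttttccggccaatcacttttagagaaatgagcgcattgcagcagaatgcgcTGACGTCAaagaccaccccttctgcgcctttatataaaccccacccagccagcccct
The element starts 66 bases before the transcription start in Fos, 143 in Dusp1, 166 in Btg2 and 57 in Meg3. Over the 180 bases before the start, TGACGT was found on either strand in 5.604% of 32851 promoters of the table, and TGACGTCA, which contains it, in 1.446%. Of the 12 immediate-early genes that rose, 4 (Fos, Atf3, Dusp1 and Btg2) held TGACGT in at least 1 of their promoters and 2 the full TGACGTCA. These counts are of genes, which can have more than 1 promoter, and the shares above are of single promoters, so they cannot be set against each other. Members of the list that did not rise were not scored. A match describes the sequence alone.

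Of 19 immediate-early genes tested 12 rose at E15.5 and 0 fell, and 14 had every E15.5 pool above every E12.5 pool. The median log2 ratio was 1.28, and 1.41 without cells of other types. Limbs were dissociated with enzymes before the cells were isolated, and each stage is 1 sample. For these genes a difference in handling cannot be told apart from one of stage. Fos, the AP-1 transcription factor that pairs with Jun, stood at 641.5, 545, 943 and 495 CPM in the 4 pools of E12.5 and 1375, 1541, 1410.1, 1241 and 1386 CPM in the 5 pools of E15.5. The E15.5 pools were within a narrow range, and the fold was 2.21. With equal weight for each cell its log2 ratio, 1.14 in the sums, was 0.99 and the call was lost. Its partners Jun and Junb were 2.47-fold and 2.74-fold higher. Btg2, an antiproliferative gene (chr1:134075170-134079120, minus strand), was read at 64.2, 18.3, 57.4 and 77.5 CPM in E12.5 pools and 250.4, 244, 209.9, 125 and 280.5 CPM in E15.5 pools. Pool 11 was the lowest of E15.5 and still above all of E12.5, and the fold was 4.08. Dusp1, a phosphatase of MAP kinases, was 2.86-fold higher and Klf4, a zinc finger factor, 3.25-fold. Zfp36, an RNA-binding protein that shortens the life of cytokine messages, was read at 30.5, 13.6, 19.3 and 18.2 CPM in the 4 pools of E12.5 and 105, 93.5, 101, 114 and 153 CPM in the 5 pools of E15.5. This is a 5.64-fold difference without overlap, which lost its call with equal weight for each cell at a log2 ratio of 1.58. Atf3, a stress-induced factor, was 8.24-fold higher. It kept the ratio without cells of other types (log2 2.76), where its pools overlapped. Not every member moved, since Egr1 was at 1249 and 1469.6 CPM with a ratio of 0.23, and Ier2 at 429 and 411 CPM with -0.06.

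S100 proteins and annexins bind calcium, and annexins attach to membranes when it is present. Of 17 members of these families 11 rose and 0 fell, with a median of 1.82. S100a6, calcyclin (chr3:90612882-90624181, plus strand), was read at 26.6, 9.41, 4.83 and 11.2 CPM in the 4 pools of E12.5 and 119, 85.3, 226, 117 and 194 CPM in the 5 pools of E15.5. The fold was 11.1, with 13.5 CPM (12.4 to 14.6) and 149 CPM (145 to 153). Anxa2, a membrane scaffold that pairs with S100a10, stood at 135, 181, 182 and 241 CPM in the 4 pools of E12.5 and 723, 711, 834, 729.7 and 912 CPM in the 5 pools of E15.5. Its partner S100a10 rose 4.95-fold, close to the 4.17-fold of Anxa2, and neither gene had overlapping pools. Anxa5, Anxa6 and S100a11 were 3.69-fold, 2.67-fold and 3.25-fold higher. Anxa4, Anxa7 and Anxa11 were without a call, at log2 ratios of 0.33, -0.09 and 0.55. Without cells of other types 8 of the 17 were called, and the epithelial genes S100a14 and Anxa8 had ratios of 0.17 and 0.35, against 2.04 and 2.11 with them.

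Of 29 adhesion genes 6 rose and 0 fell, and of 23 cytoskeletal genes 2 rose and 0 fell (4 without pool 10). The 2 cytoskeletal genes were Lmna and Vim. Lmna, the nuclear lamina protein lamin A/C (chr3:88480147-88509956, minus strand), was read at 19.5, 34.5, 48.8 and 80.0 CPM in the 4 pools of E12.5 and 437, 306, 484, 317 and 447 CPM in the 5 pools of E15.5. With 8.48-fold between the sums, Lmna was read in 34.8% and then 90.0% of cells at equal depth. Vim, the intermediate filament of mesenchyme, was 2.28-fold higher. Cd9, a tetraspanin of the plasma membrane, was read at 4.01, 17.5, 13.0 and 13.7 CPM in the 4 pools of E12.5 and 80.7, 83.5, 54.9, 104 and 55.4 CPM in the 5 pools of E15.5. Cd9 was 6.21-fold higher and kept its call without cells of other types, at a log2 ratio of 1.39 against 2.23. Mcam, an adhesion molecule of vessels and mesenchymal progenitors, was 4.97-fold higher. Lgals1, galectin 1, a sugar-binding protein, went from 1119 CPM (1109 to 1128) to 2783 CPM (2768 to 2798), 2.49-fold. Itm2a, a membrane protein of cartilage and muscle differentiation, was 4.11-fold higher.

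Transcription factors linked to connective tissue and differentiation rose in 9 of 31 cases and fell in 0 (1 without pool 6 or 9; median 0.55). The 9 were Nfib, Nfic, Nfix, Klf2, Klf4, Klf6, Klf9, Zeb2 and Twist2, so 3 of them were nuclear factor I genes and 4 Krüppel-like factors. Klf4 and Klf6 were also counted among the 12 immediate-early genes that rose. Nfib, a nuclear factor I gene (chr4:82290173-82705750, minus strand), stood at 541, 590.5, 689.7 and 867 CPM in the 4 pools of E12.5 and 1762, 1781, 2325, 2345 and 2001 CPM in the 5 pools of E15.5. The groups did not overlap, and Nfib was 2.95-fold higher. Nfic was 3.09-fold higher, and Nfia had a ratio of 0.86 without a call. Nfix was called at 2.39-fold but not without pool 5 (log2 0.98). Zeb2, a zinc finger repressor of epithelial genes and of BMP signals, was read at 8.62, 18.3, 3.68 and 19.2 CPM in the 4 pools of E12.5 and 88.1, 71.5, 122, 101 and 91.4 CPM in the 5 pools of E15.5. Zeb2 was 7.02-fold higher and was read in 9.93% and 44.4% of cells at equal depth. Twist2, which acts in dermal mesenchyme, was 2.45-fold higher, while Twist1 and Prrx1 of the early mesenchyme had ratios of -0.21 and -0.70 without a call.

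In the signalling pathways few members were called, beside 3.05% of all genes tested called higher and 1.67% called lower. In the TGF-beta pathway 2 of 17 genes rose and 0 fell (median 0.13; 2 fell without pool 7 and 1 without pool 9 or 12), and both were receptors. Tgfbr2, the type II receptor that binds the ligand, was read at 40.6, 12.6, 22.8 and 22.2 CPM in the 4 pools of E12.5 and 50.1, 77.6, 90.2, 127 and 134 CPM in the 5 pools of E15.5. Pool 8 of E15.5 came closest to E12.5, and the fold was 3.85. The co-receptor Tgfbr3 was 3.09-fold higher, and the ligands Tgfb2 and Tgfb3 had ratios of -0.06 and 0.83 without a call. With each cell at equal weight neither receptor kept its call (log2 1.20 and 1.46). In the Wnt pathway 3 of 32 genes rose and 1 fell. The rises were the secreted antagonist Dkk2 at 2.53-fold, Dkk3 of the same family at 3.89-fold, and Wnt2. Dkk3, a secreted glycoprotein of the Dickkopf family, stood at 20.2, 37.4, 35.7 and 12.3 CPM in the 4 pools of E12.5 and 134, 74.9, 62.5, 72.6 and 115 CPM in the 5 pools of E15.5. Wnt2 had counts in 1 pool of E12.5 alone and ran from 5.74 to 39.8 CPM over the E15.5 pools. The lower gene, Nkd2, an inhibitor of Wnt signals, lost its call without pool 6, 7 or 8 and without cells of other types (log2 -0.71), where 0 genes of the list fell. With all cells, 2 genes fell without pool 10. Among 15 Notch genes the ligand Jag1 rose (4.34-fold), the only call in that list (2 rose without pool 4 and 1 fell without pool 7). Kitl, the ligand of the Kit receptor, Csf1, the macrophage growth factor, and Cxcr7, a scavenger of the chemokine Cxcl12, were the 3 of 11 chemokine and cytokine genes that rose. Their folds were 6.14 (15.2 without pool 5), 6.86 (10.8 without pool 7) and 2.42, and Cxcr7 lost its call without pool 7.

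The BMP list of 24 genes held 2 rises and 3 falls, and the falls were 3 of the Id genes, which encode inhibitors of basic helix-loop-helix factors and are direct targets of BMP signals. Id1, inhibitor of DNA binding 1 (chr2:152736251-152737410, plus strand), was read at 554, 568.2, 419 and 478 CPM in the 4 pools of E12.5 and 149.6, 187, 65.1, 121 and 86.7 CPM in the 5 pools of E15.5. Id3, its relative on chromosome 4, stood at 931, 1031, 723 and 987 CPM in the 4 pools of E12.5 and 349, 522, 352, 501 and 416 CPM in the 5 pools of E15.5. Id2 was 2.37 times lower, beside 4.17 times for Id1 and 2.21 times for Id3, and in all 3 the pools did not overlap. The ratios of the 3 genes without cells of other types were -1.97, -1.19 and -1.17. The ligands Bmp4 and Bmp7 had ratios of 0.33 and 0.02 without a call, and Bmp2 one of -1.11 with overlapping pools. Among the rises was the antagonist Fst, at 2.51-fold, whose call was lost without pool 4, 7 or 11 and without cells of other types (log2 0.74). The count of falls was 5 without pool 7 or without pool 9. Of 18 FGF genes 0 were called (1 rose without pool 6), and of 9 hedgehog genes 0 (1 rose without pool 5, 6, 7, 9 or 10), with medians of 0.25 and -0.05. Of 14 retinoid genes the retinol transporter Stra6 and Cyp26b1 fell. Stra6 was 3.98 times lower. Cyp26b1, an enzyme that degrades retinoic acid, lost its call without pool 5, 6 or 11 and without cells of other types (log2 -0.75 against -1.07), where 1 gene of the list fell and 1 rose. With all cells the count was 4 without pool 10 and 1 without pool 5 or pool 11.

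Factors of undifferentiated cells and of limb bud patterning were among the genes that fell. Sox11, a transcription factor of embryonic progenitors (chr12:27334264-27342574, minus strand), had the largest loss in CPM among called genes. It was read at 2384, 3006, 3223 and 2924 CPM in E12.5 pools and at 698, 1255, 835, 849.9 and 1013 CPM in E15.5 pools. Pool 9 was the highest of E15.5 and was under the lowest of E12.5, and Sox11 was 3.11 times lower. Zfhx3 and Zfhx4, large zinc finger homeodomain factors, were 3.03 and 2.36 times lower, and Zfhx4 lost its call without cells of other types with a log2 ratio of -0.98. Cd24a, a glycosylated surface protein of immature cells, was read at 747, 1136, 1422 and 972 CPM in the 4 pools of E12.5 and 273, 255, 407, 308 and 352 CPM in the 5 pools of E15.5. Marcksl1, an actin-binding membrane protein, was 2.48 times lower, Cd24a 3.28 times and the corepressor Trim28 2.15 times. Among 18 limb bud factors 7 fell and 0 rose, and 8 of them had every E15.5 pool below every E12.5 pool, which 4.42% of all genes had. Msx1, a homeobox repressor of the distal bud, stood at 581.4, 469, 387 and 389 CPM in the 4 pools of E12.5 and 60.5, 219, 267, 131 and 209 CPM in the 5 pools of E15.5. An antisense gene overlaps Msx1 and the strand of the counting is not given, so its counts may include that gene. Msx1 was 2.67 times lower, its relative Msx2 4.66 times and Prrx2, a paired-type homeobox factor, 3.24 times. Prrx2 had a log2 ratio of -1.45 without cells of other types, where its pools overlapped. Among 28 guidance genes 1 fell and 0 rose, beside 1.67% lower over all genes (2 fell without pool 9, and 1 rose without pool 7, 9 or 12). That gene, Epha4, a receptor of cell sorting and axon guidance, was 2.39 times lower. It lost the call without cells of other types (log2 -1.06) and with equal weight for each cell (-1.15). Zfp423, a zinc finger factor that partners with BMP effectors and marks preadipocytes, was 2.98 times lower, with a log2 ratio of -1.03 and no call without cells of other types.

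Chromatin and RNA-binding factors of progenitors had lower levels throughout their list, mostly by less than 2-fold. Of 21 genes 5 fell, 0 rose, all 21 had negative ratios and 12 had every E15.5 pool below every E12.5 pool. The median was -0.64. Hmga2, an architectural chromatin protein (chr10:120361275-120476469, minus strand), stood at 1191, 1161, 1244 and 1154 CPM in the 4 pools of E12.5 and 315, 258, 419.7, 255 and 275 CPM in the 5 pools of E15.5. The pools of E12.5 hardly differed from each other. Igf2bp1, an RNA-binding protein of embryonic messages, was read at 251, 286, 262 and 219.8 CPM in the 4 pools of E12.5 and 139, 61.0, 92.5, 101 and 79.8 CPM in the 5 pools of E15.5. Igf2bp1 was 2.61 times lower and Hmga2 3.90 times. The other falls were Trim71 at 6.02 times (11.0 without pool 12), a repressor of messages in stem cells, and Smarcc1 and Hmgb3 at 2.07 and 2.05 times. Smarcc1 lost its call without pool 6 or 8, Hmgb3 without pool 4, 5 or 10, and both without cells of other types (log2 -0.92 and -1.08). With TMM-scaled library sizes 3 genes of the list were called. Hmga1, Hmgb1 and Dnmt1 had ratios of -0.85, -0.56 and -0.56 without a call.

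Splicing factors and ribosomal protein genes had small ratios of opposite sign that nearly all members shared. Of 20 splicing factors 0 were called, all 20 had negative ratios (median -0.50), and in 8 every E15.5 pool was below every E12.5 pool. Hnrnpa1, which binds exonic silencers and was found in 93.6% and 86.2% of cells at equal depth, was read at 116, 102, 83.4 and 89.6 CPM and then 62.5, 80.3, 70.5, 70.3 and 53.0 CPM. Srsf1, a serine and arginine rich splicing factor, had a ratio of -0.55, with overlapping pools. Of 32 ribosomal protein genes 0 were called, 31 had positive ratios (median 0.24), and 16 had every E15.5 pool above every E12.5 pool. Their summed level was 44993 to 49871 CPM over the E12.5 pools and 50949.8 to 62873 CPM over the E15.5 pools. Reads of these genes can be shared with pseudogene copies, so single members are uncertain. Genes of ribosome assembly had a median of -0.14 and nuclear genes of oxidative phosphorylation one of 0.15, with 0 calls in each (1 ribosome assembly gene rose without pool 7).

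Most cell cycle genes had lower levels at E15.5, mostly without a call. Of 32 replication genes 3 fell and 29 had negative ratios (median -0.46), and 5 fell without pool 5. Mcm7, a subunit of the replicative helicase, stood at 437, 302, 375 and 342 CPM in the 4 pools of E12.5 and 204, 142, 109, 114 and 121 CPM in the 5 pools of E15.5. Mcm7 was 2.56 times lower, Nasp, a histone chaperone, 3.63 times and Mcm10, an initiation factor, 3.78 times. Mcm10 was not called without cells of other types. Of 28 mitosis genes 0 were called (2 fell without pool 6 or 12 and 1 without pool 4 or 10), 7 had every E15.5 pool below every E12.5 pool, and 25 had negative ratios (23 with TMM-scaled library sizes), with a median of -0.43. Without cells of other types the median was -0.62 and 4 genes fell. Top2a, the topoisomerase of dividing cells, was read at 1075, 1921, 1236 and 1380.1 CPM in the 4 pools of E12.5 and 684, 789, 629.99, 671 and 979 CPM in the 5 pools of E15.5. Its log2 ratio was -0.88, under the threshold, and Mki67 had -0.53. The cyclin-dependent kinase inhibitor Cdkn1c was at 1322 and 2067 CPM (ratio 0.64), and Cdkn1a at 13.8 and 54.8 CPM (ratio 1.67), both without a call.

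In the lists of glycolysis and stress 3 genes fell, beside 1.67% of all genes tested. Of 20 glycolytic genes Ldhb, a lactate dehydrogenase subunit, and Pfkl, liver phosphofructokinase, were lower by 2.37 and 2.25 times, and Pfkl lost its call without pool 7 or 12. Ldhb stood at 351, 594.5, 542 and 284 CPM in the 4 pools of E12.5 and 186, 192, 125, 164 and 212 CPM in the 5 pools of E15.5. Pools 4 and 7 were the lower ones at E12.5, and they remained above all pools of E15.5. Of 19 heat shock and stress genes the chaperone Hsph1 fell and 0 rose (2 without pool 4 or 12, 1 without pool 6, 7 or 8). Hsph1 was 3.31 times lower, at 226 CPM (222 to 230.5) and 68.3 CPM (65.9 to 70.7). Its E12.5 pools stood at 151, 205, 314 and 250.2 CPM and its E15.5 pools at 58.3, 84.9, 84.3, 51.9 and 66.7 CPM, so each E15.5 pool was well under the lowest of E12.5. In 6 of the 19 genes every E15.5 pool was below every E12.5 pool, Hsp90aa1 among them with a ratio of -0.49. Psap, the precursor of lysosomal activators, rose 2.21-fold and lost its call without pool 7. It was the 1 of 20 lysosomal genes that rose, near the 3.05% of all genes tested. Smaller positive ratios were shared by most of the list, with 18 of 20 above 0 and a median of 0.53. In 4 of the 20 every E15.5 pool was above every E12.5 pool, beside 4.83% of all genes tested. In that list 2 genes rose and 1 fell without pool 4.

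A higher sum can hold more cells in which a gene is read, more counts in those cells, or both. To compare shares, each cell was thinned to 90000 counts, which left 141 cells of E12.5 and 160 of E15.5, without 17 and 40 shallower cells. All 391 higher genes had a larger share of cells at E15.5, and the median share went from 9.93% to 31.25%. Where at least 5 cells of each stage held the gene, the level in those cells was also higher for 267 of 279 genes. For the 214 lower genes the median share went from 45.4% to 26.25%, and the level in cells with a count was lower for 192 of 199. These genes were chosen by their sums, so the counts describe them and test nothing. Igf1 was read in 14.9% of cells at E12.5, at 231 CPM in those cells, and in 77.5% at E15.5, at 586.7 CPM. Anxa2 went from 56.0% to 96.2% of cells and from 335 to 775 CPM in them. For Nfib the share was near its limit, at 97.2% and 100%, and the level in cells went from 757 to 2079.7 CPM. Hmga2 was still read in 83.1% of E15.5 cells (from 99.3%), at 393 against 1221 CPM. Col14a1 hardly differed in level among cells with a count (228 and 225 CPM), and its share went from 7.09% to 38.8%. Without thinning, the shares of Igf1 were 20.9% and 85.0%, those of Anxa2 67.7% and 95.5%, and those of Col14a1 10.1% and 46.0%.

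**Figure D4:**
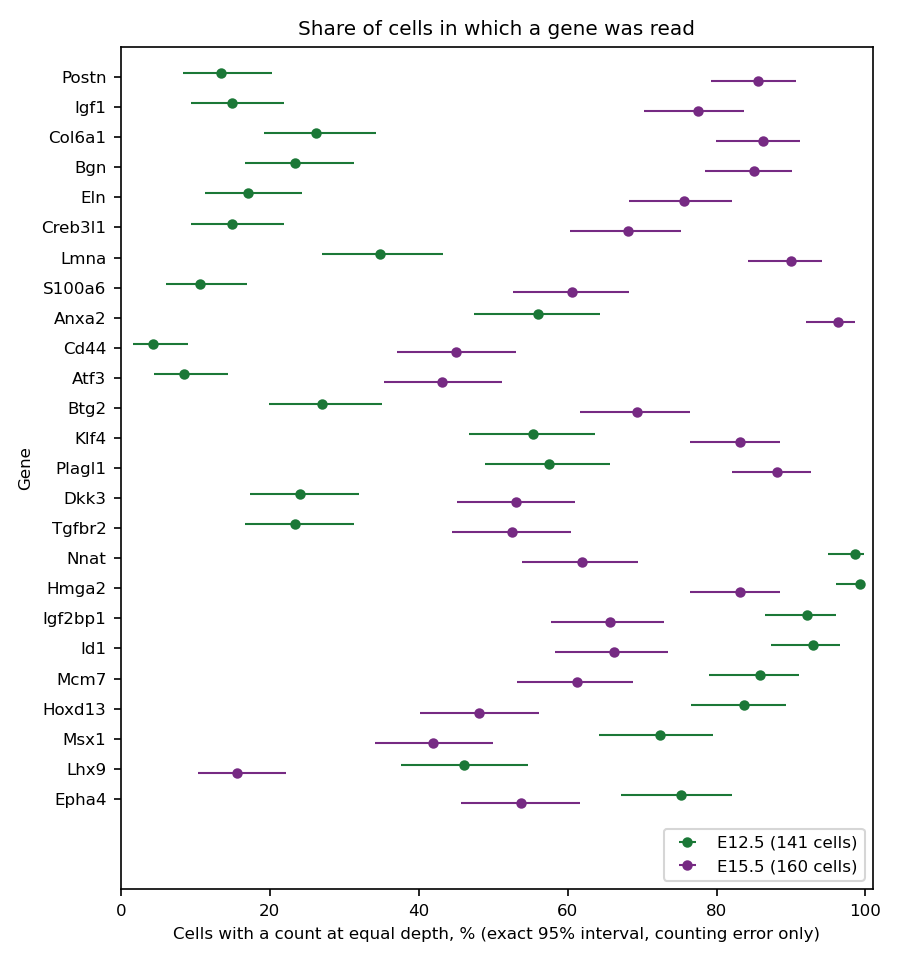
Points are the percentage of cells in which each of 25 genes was read after thinning each cell to 90000 counts (141 cells at E12.5, 160 at E15.5), with exact 95% binomial intervals that cover counting error only. Igf1, Col6a1 and Bgn were read in a minority of E12.5 cells and most E15.5 cells, and Epha4 and Lhx9 in fewer cells at E15.5.

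Markers of other cell types moved between the stages, and some called genes moved with them. Cells with at least 3 epidermal markers numbered 8 of 158 (5.06%) in the earlier stage and 33 of 200 (16.5%) in the later. Of 18 epidermal genes 8 rose and 0 fell, with a summed level of 41.6 to 473 CPM over the E12.5 pools and 926 to 2197 CPM over those of E15.5. Krt8, Krt19, Krt1 and Dmkn were at 0 counts at E12.5. Without cells of other types, 4 of the genes were called higher and 1 lower, and the list's median went from 2.28 to 0.77. Krt5, the keratin of basal epidermal cells, was read at 23.7, 26.0, 0.345 and 0 CPM in the 4 pools of E12.5 and 279, 196, 150.3, 81.8 and 79.0 CPM in the 5 pools of E15.5. Its log2 ratio was 3.26, and 0.94 without a call once those cells were left out. Krt5 was read in 44.4% of thinned E15.5 cells, a larger share than the 16.5% of cells with 3 epidermal markers, and the source of the counts in other cells was not tested. Fabp5, a fatty acid binding protein, stood at 153, 120.3, 215 and 175 CPM in the 4 pools of E12.5 and 1008, 1163, 655, 818 and 285 CPM in the 5 pools of E15.5. Its call was also lost, with a ratio of 2.20 before and 0.57 after. Mast cell markers were at 0 counts at E12.5 for 7 of 8 genes, and Srgn, a proteoglycan of secretory granules, was the 1 of 6 tested that rose (4 without pool 9). Srgn had 41.4 CPM at E15.5, with 43.1% of its counts in 1 cell, and a ratio of 0.26 without cells of other types. Sarcomere genes were not called (0 of 16), with a median of -2.27 (-0.33 without cells of other types) and summed levels of 7.94 to 4359 CPM and 18.8 to 1087 CPM, pool 7 holding the highest of E12.5. The median of the endothelial list was 0.50 with 0 of 16 called (1 rose without pool 6, 7 or 10).

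Without these cells the ratios of 3 matrix genes and of Igf1 were larger. The log2 ratio went from 2.17 to 2.49 for Col1a2, from 2.45 to 3.14 for Sparc, from 2.70 to 3.69 for Bgn and from 3.48 to 3.77 for Igf1. Over the lists, 9 of 23 collagen processing genes, 8 of 17 elastic fibre genes and 11 of 31 connective tissue factors were then called higher, against 7, 6 and 9 with all cells. Secretory genes went from 3 to 5 called higher, basement membrane from 4 to 6, lysosome from 1 to 2, heat shock and guidance each from 0 to 2, and hedgehog and endothelium each from 0 to 1. Other counts dropped, from 12 to 11 for collagen chains and for immediate-early genes, from 11 to 10 for matricellular genes, and from 6 to 5 for adhesion, tendon and imprinted genes. On the lower side the limb bud list went from 7 to 5, the progenitor list from 5 to 4 and guidance from 1 to 0, while ribosome assembly went from 0 to 1. Among all genes 2.97% were called higher and 2% lower in this set of 139 and 138 cells. The mix of mesenchymal cell types within each stage was not resolved here.

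**Figure D5:**
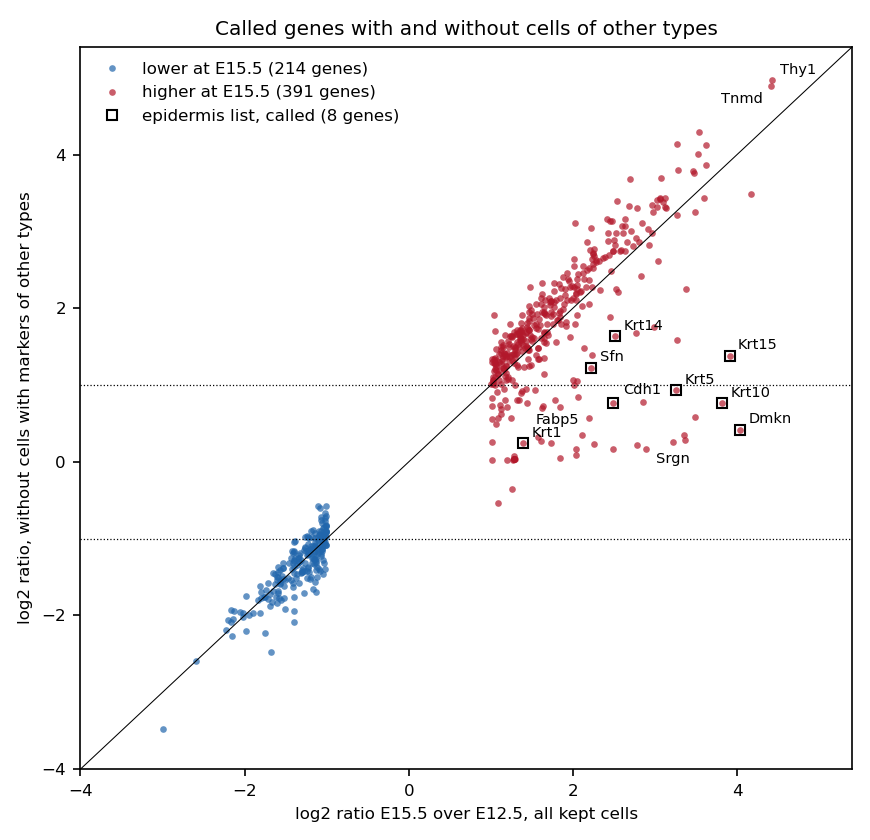
Each point is a called gene, with its log2 ratio over all kept cells (x axis) and without the cells that carried markers of other types (y axis). Dotted lines mark the threshold of 1, and the 8 called epidermal genes (squares) lie below the diagonal.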

How the data were processed

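Single-cell RNA of hind limb cells was measured with the Fluidigm C1 and Nextera XT libraries, per the labels' protocols. The authors deposited a table of raw counts per gene and cell. The submitters' processing notes name Bowtie2, featureCounts and mm10. For versions, annotation, strand and molecular identifiers the sources used here give nothing. The table held 22738 entries for 22092 symbols, where identical entries of 1 symbol were kept once and others summed. Each sample of the series is 1 cell, and 1120 further samples were not analysed here. Kept cells had 2681 to 1185267 counts, with a median of 250709.5 at E12.5 and 192228.5 at E15.5. No 2 cells held identical counts, and no doublet caller was run.

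Counts were summed per library pool and per stage and divided by the summed total (Python 3.11.15, numpy 2.4.6, pandas 2.3.3, scipy 1.17.1). The ratio was taken after adding 5 CPM, and genes needed a count in 10 cells. A ratio against a stage at 0 counts is not printed as a fold. TMM factors of the alternative came from edgeR 4.0.16 (R 4.3.3), and no count model was fitted. The code that makes the calls was tested on simulated data with known folds, which gives no error rate for these cells. The gene set and the lists of genes by function were chosen with earlier results of these data known. Genes to name were the 15 called in each direction with the largest difference in CPM, stable without each pool and read in at least 20% of thinned cells, up to 4 called members of each list at 20 CPM or more, members that complete a count of 5 or fewer, and marker genes. Other list members named beside them, called or not, were chosen after their values were seen. Alternatives were another addition to the CPM, TMM, no filter, 2000 detected genes, thinning, means over cells or pools, each pool left out, the highest cell of each gene left out, and cells with markers of other types left out. Gene positions are from GENCODE vM21 and promoters from RefSeq, both on GRCm38. Antisense partners cannot be told from their genes, since the strand is not given. 1 called gene is not reported here.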

Additional observations from a re-analysis of the deposited data

How the results depend on the processing

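Each stage is 1 sample, so the pools show technical spread and not that between animals. The addition of 5 CPM shrinks the ratios of low genes. No paired analysis was possible because each stage is 1 pooled sample and the cell numbers pair nothing. With 391 genes higher and 214 lower as reported, adding 20 CPM gave 211 and 91, and the fold alone without the pool condition gave 939 and 557. Leaving out 1 pool at a time gave 436 to 530 higher and 232 to 295 lower, the highest number of higher genes without pool 6. Fewer pools loosen the pool condition, and 317 of the 391 higher and 128 of the 214 lower genes kept their call without every pool in turn. All other settings that were run stayed within 1.5 times of both counts, with TMM giving 428 and 170. No gene named by the rule reversed its direction. Of 115 such genes 100 kept their call with 20 CPM added, 112 with TMM, 104 with thinned cells, 97 with equal weight for each cell, 96 without cells of other types and 104 without the highest cells. With TMM the calls of Asb4, Hmgb3 and Smarcc1 were lost, at log2 ratios of -0.98, -0.94 and -0.97. With 20 CPM added the lost calls included Csf1, Cxcr7, Lama4, Lamb2, Msx2, Mcm10, Pfkl and Psap. Thinning lost Csf1, Epha4, Fst, Lamb2, Mcm10, Msx2, Pappa2 and Tgfbr3 among others, and without the highest cells Adamts15, Apod, Igfbp7, Krt10, Lamb2, Lect1, Lhx9, Pappa2, Rian, Srgn and Tgfbr3 lost theirs. The cause of these losses was not tested.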

Other observations

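Caveolae, flask-shaped pits of the plasma membrane, are built from caveolins and cavins, and genes for both were among the rises outside any gene list above. They were chosen after their values were seen, and further members of both families are given with them. Cav1, caveolin 1, the main coat protein of these pits, was read at 0, 8.24, 16.1 and 14.6 CPM in the 4 pools of E12.5 and 52.6, 134, 77.7, 128 and 117 CPM in the 5 pools of E15.5. Ptrf, cavin 1, was read at 2.99, 15.8, 23.6 and 24.0 CPM in the 4 pools of E12.5 and 227, 168, 225, 122 and 245 CPM in the 5 pools of E15.5. No E15.5 pool of either gene came near the E12.5 pools, and the folds were 10.3 and 12.2. Prkcdbp (cavin 3) was 6.41-fold higher, at 20.1 and 129 CPM. Sdpr (cavin 2) rose from 1.74 CPM to 17.8, 201, 54.7, 30.6 and 46.2 CPM in the E15.5 pools, a call that was lost without cells of other types. Pool 9 held the most of it. Cav2, a partner of caveolin 1, was at 4.15 and 11.9 CPM with overlapping pools and no call, and Ehd2, an ATPase at the neck of the pits, at 1.37 and 6.28 CPM likewise. Murc (cavin 4), a cavin of muscle, was at 8.72 and 6.08 CPM without a call. Without cells of other types the log2 ratio was 2.42 for Cav1, 4.14 for Ptrf, 3.17 for Prkcdbp and 2.25 for Sdpr. At equal depth the share of cells with a Ptrf count went from 13.5% to 78.1%.

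The glucocorticoid receptor gene was also among the rises outside the lists. Nr3c1, this receptor, which acts as a transcription factor when it binds its steroid hormone, was read at 8.62, 18.4, 20.4 and 18.3 CPM in the 4 pools of E12.5 and 144, 156, 165, 117 and 119.7 CPM in the 5 pools of E15.5. Nr3c1 was 8.58-fold higher and was read in 14.9% and 63.1% of cells at equal depth. Genes called higher above can include targets of the receptor, and Dusp1, Zfp36 and Klf9 among them were not sorted in this respect. Only 3 known targets outside the lists were looked at, and these 3 were not called. They do not stand for its targets as a set, and whether that set moved was not tested. Fkbp5, a co-chaperone, was at 50.0 and 51.5 CPM, Tsc22d3, a leucine zipper protein, at 65.7 and 68.3 CPM, and Per1, a clock gene, at 30.0 and 42.9 CPM, each with overlapping pools. On the lower side, Prdm16, a zinc finger factor of brown fat and palate mesenchyme, was read at 129, 123, 141 and 96.8 CPM in the E12.5 pools and 39.5, 37.7, 45.1, 30.5 and 32.5 CPM in the E15.5 pools. Its relative Mecom of the same PR domain family fell with it, 3.24 and 4.85 times lower. Bcor, a corepressor on the X chromosome, was 3.48 times lower.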
